A study of Mus musculus with 6 samples.

Results

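The 37 genes described here encode the core of the insulin and IGF1 signalling pathway. They run from the ligand IGF1 and its binding proteins through the receptors, their substrates and adaptors, PI3 kinase and AKT, the mTOR branch and the targets of AKT to a MAP kinase and inhibitors of the pathway. They were chosen by symbol from knowledge of the pathway, with earlier results of these data known. All 37 symbols were found among the 24062 genes of the count table. Insulin binds its receptor on the cell surface, which phosphorylates the insulin receptor substrates, and these recruit PI3 kinase, which in turn leads to activation of the kinase AKT. AKT phosphorylates GSK3, the FOXO transcription factors, regulators of glucose transporter traffic and, in endothelial cells, the nitric oxide synthase eNOS, whose product widens vessels. Endothelial insulin signalling and the passage of insulin across the endothelium govern how much insulin reaches the muscle fibers.

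TRAPseq was performed on gastrocnemius and soleus muscle of ovariectomized female mice from a B6.129S4 line with the Gt(ROSA)26Sorfm1 allele, which holds CAG-EGFP/Rpl10a and birA. A VECad-Cre transgene, driven by the VE-cadherin promoter, switches on GFP-tagged ribosomal protein L10a in endothelial cells (GFP-L10aEC mice), and ribosomes with their RNA were retrieved by anti-GFP antibody. There were 3 libraries from mice with placebo pellets (vehicle) and 3 from mice with 17β-estradiol pellets (E2), both given for 4 weeks. Mice were 4 weeks of age per the labels, whereas the study's methods place ovariectomy at a later age. The label of a library carries 2 numbers, other ones in each library of a group, which makes 6 numbers for 3 libraries. The study's methods likewise give more biological replicates per group than there are libraries, and neither source says whether samples were pooled. The p-values measure the spread between these libraries.

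Counts on genes summed to between 84823 and 451034 per library, so that 1 count equals between 2.22 and 11.8 CPM (counts of a gene per 1 M counts of the library). Some libraries stood apart. Across genes tested, the log2 CPM of vehicle replicates 1 and 2 had a Pearson's r of 0.957, but their r with vehicle replicate 3 was 0.630 and 0.634. The r of vehicle replicate 3 with the E2 libraries was 0.735 to 0.824. Of the Y-linked genes, 40 counts were found in vehicle replicate 1, 63 were found in vehicle replicate 2 and 0 elsewhere, which goes against the female sex given for the mice. Xist, the RNA of X inactivation, had 1 count each in vehicle replicates 1 and 2, although these libraries had the most counts. It had 3 counts in vehicle replicate 3 and 6, 17 and 9 counts in E2 replicates 1, 2 and 3. The part of sex in the differences between the groups was not tested. Values without vehicle replicates 1 and 2 are given for the tested pathway genes. The 14 endothelial marker genes summed to 834, 902 and 259 CPM with vehicle and to 143, 373 and 642 CPM with E2, and 10 of the 14, Kdr and Vwf among them, had a count of 0 in some library. The 13 skeletal muscle fiber markers made up between 3.77% and 8.85% of all counts, against at most 0.0902% for the endothelial markers. They summed to 88499, 66309.9 and 49197 CPM with vehicle and to 38909.9, 42657 and 37734 CPM with E2, so that each E2 library lay below each vehicle library. The 6 smooth muscle and pericyte markers summed to 675, 468 and 118 CPM with vehicle and to 230, 212 and 229 CPM with E2, and these groups overlapped. The part of cell composition in the results below was not tested, and in these bulk libraries fewer cells of a type and less RNA per cell cannot be told apart.

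All 37 pathway genes had a count in some library, but their coverage was low. The median pathway gene had 30 counts over the 6 libraries together, where the median of all 14057 genes with a count had 9. Fewer than 10 counts were present for 6 pathway genes, and Pik3cb and Trib3 had 3 counts each. Where a gene had a count of 0, up to 3 counts remain possible, which is 6.65 CPM in the deepest library (vehicle replicate 2) and 35.4 CPM in the shallowest (vehicle replicate 3). The plot of CPM by gene and library shows where such zeros lie.

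**Figure D1:**
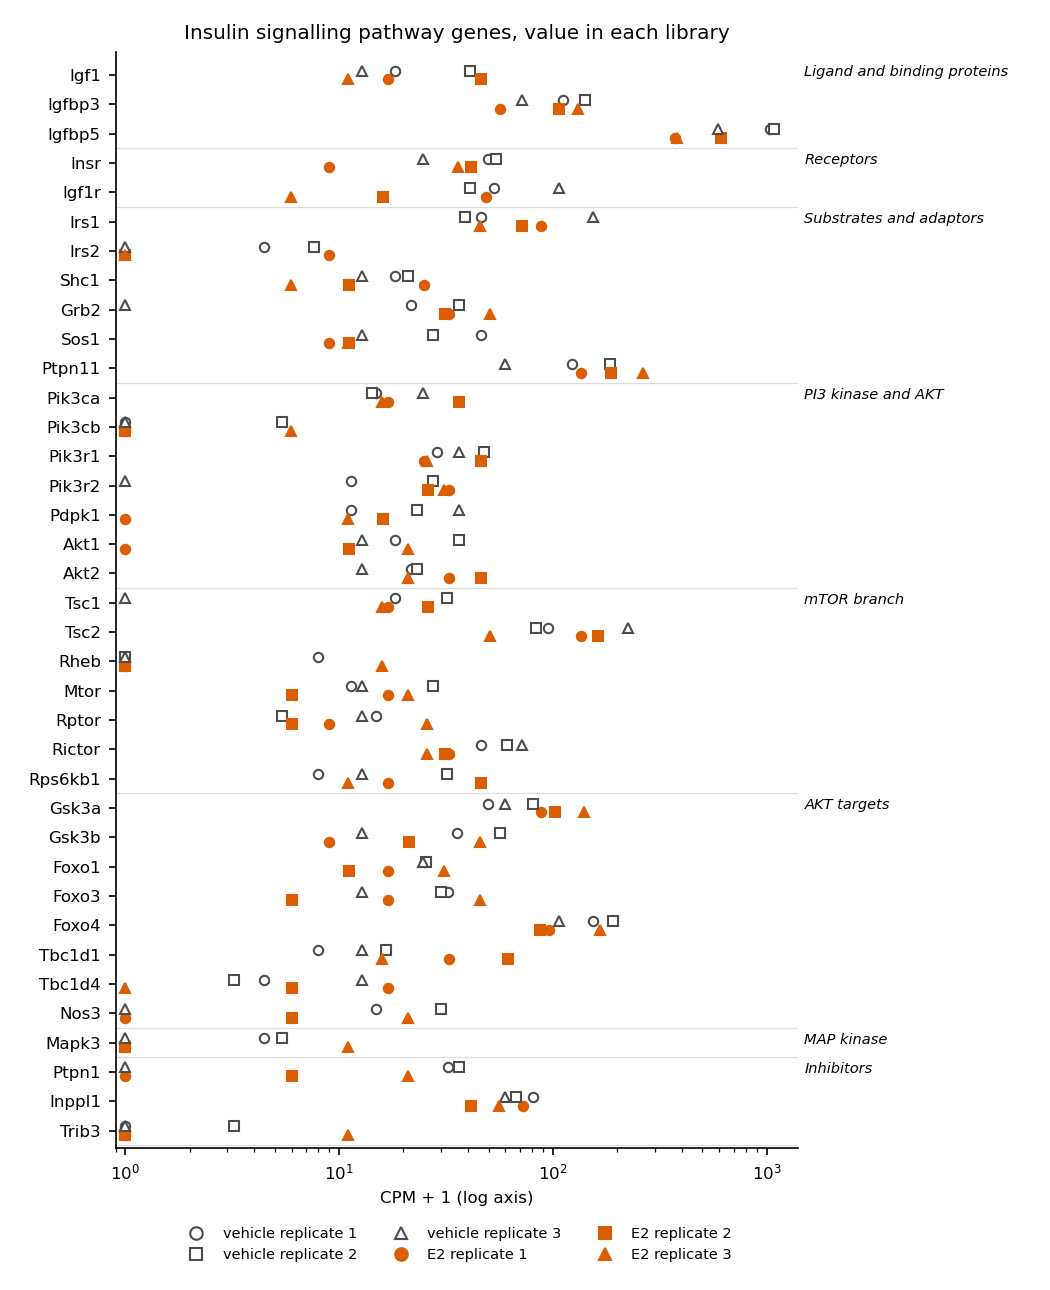
CPM of each of the 37 pathway genes in each library, plotted as CPM + 1 on a log axis, with genes grouped by role. Grey open symbols are the 3 vehicle libraries and orange filled symbols the 3 E2 libraries. Points at 1 are counts of 0, and Igfbp5 lies highest. In these CPM from library totals, the groups separate for Gsk3a (E2 above) and for Sos1 and Rictor (E2 below).

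Levels of different genes were compared as CPM per kilobase of exon (GENCODE M21). Igfbp5 had the highest level, at 149.7 ± 44.8 CPM per kilobase in the vehicle group and 75.5 ± 22.5 CPM per kilobase in the E2 group (SD, n = 3 each). Its lowest library (62.1 CPM per kilobase) lay above the highest library of the next gene in order, the FOXO transcription factor Foxo4 (54.7 CPM per kilobase). Foxo4, Igfbp3, Gsk3a and Ptpn11 followed with means over both groups of 38.0, 32.6, 29.6 and 21.1 CPM per kilobase, and the ranges of their libraries overlapped. Their order differed between the groups, since Gsk3a stood below Foxo4 and Igfbp3 with vehicle (21.5 against 43.0 and 34.2 CPM per kilobase) and above both with E2 (37.6 against 33.0 and 31.0 CPM per kilobase). Tsc2, Inppl1, Grb2 and Irs1 had means between 7.99 and 12.9 CPM per kilobase. Igf1r and Insr stood lower, at 3.93 ± 2.10 and 3.04 ± 1.16 CPM per kilobase with vehicle (SD, n = 3). Irs2, Rheb and Pik3cb were the lowest, with means under 0.5 CPM per kilobase.

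The filter on low counts of edgeR left 1682 genes of the table to be tested, and 8 of the 37 pathway genes were among them, namely Igfbp3, Igfbp5, Irs1, Ptpn11, Tsc2, Gsk3a, Foxo4 and Inppl1. In edgeR's quasi-likelihood test, none of the 8 had an adjusted p below 0.05, where 5.47% of all genes tested did. DESeq2 and limma-voom also called 0 of the 8 at an adjusted p below 0.05. At an unadjusted p of 0.05 or less, which was the threshold of the study, 1 of the 8 was higher with E2 (Gsk3a), where 10.5% of all genes tested were, and 0 were lower, where 15.1% of all genes tested were. With 8 genes, these counts do not set the pathway apart from the other genes tested.

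Without the filter, the same test covered all 37 pathway genes and 14057 genes in all. An unadjusted p of 0.05 or less was then found for 3 lower genes (Igfbp5, Igf1r and Sos1), where 6.81% of all genes were lower, and for 1 higher gene (Tbc1d1), where 3.27% of all genes were higher. None passed the adjustment over all genes. These counts moved with single libraries. On leaving out vehicle replicate 1, 0 pathway genes were lower and 0 higher, and on leaving out vehicle replicate 2 Igf1r was lower and 0 were higher. Leaving out vehicle replicate 3 gave 4 lower genes (Ptpn1 in addition) and 1 higher, with Igfbp5 at an adjusted p below 0.05. On leaving out any E2 library 1 gene was lower, but not the same one. It was Igf1r without E2 replicate 1, Igfbp5 without E2 replicate 2 and Ptpn1 without E2 replicate 3. No gene was higher without E2 replicate 2. Without vehicle replicates 1 and 2 together, the vehicle group was a lone library, the shallowest, in which Grb2 and Pik3r2 had counts of 0. The log2 fold change of Igf1r was then -2.11. On leaving out single libraries, between 3.65% and 10.4% of all genes were lower and between 1.65% and 4.86% higher, with the highest shares without vehicle replicate 3. The log2 fold change was above 0 for 14 and below 0 for 23 of the pathway genes (median -0.20). Of all genes, 46.9% had a log2 fold change above 0 and 53.1% below 0 (median -0.14). By CPM alone, the E2 group lay wholly above the vehicle group for 1 pathway gene (Gsk3a), where 4.39% of genes with a count did so, and wholly below it for 2 (Sos1 and Rictor), where 6.11% did. In the other 34 genes the groups overlapped. These CPM used library totals, without the TMM factors of the fits (0.819 to 1.15 in the fit with the filter). Narrow gaps between the groups, such as that of Sos1, can depend on this scaling.

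**Figure D2:**
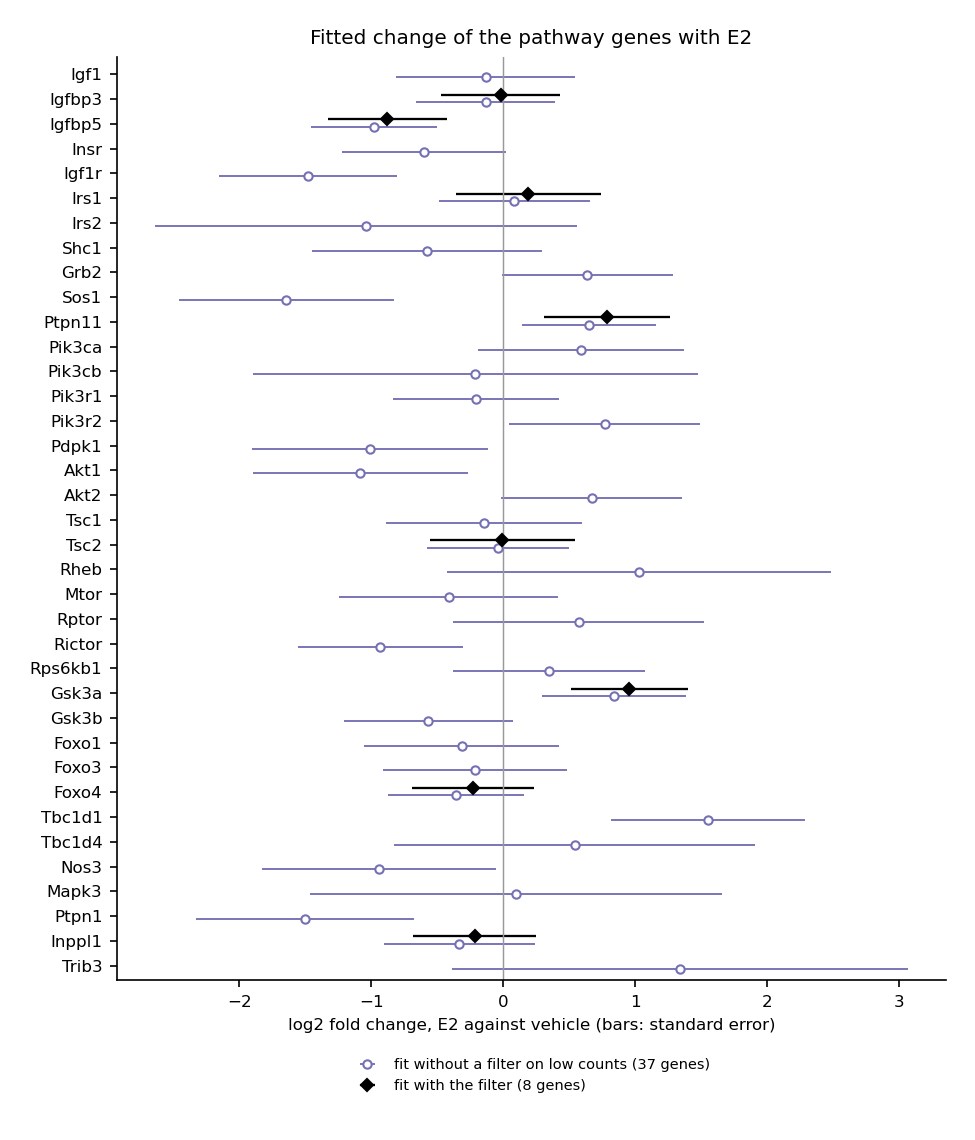
Change (log2 fold) of each pathway gene with E2 against vehicle, with its standard error, from edgeR's quasi-likelihood fit. Black diamonds are the 8 genes that passed the filter on low counts and open purple circles all 37 genes fitted without it. Values below 0 are lower with E2, and the bars widen for genes with few counts, such as Irs2, Pik3cb and Trib3.

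The summed level of the 37 genes was 2205 ± 410 CPM in the vehicle group and 1712 ± 229 CPM in the E2 group (SD, n = 3 each). Igfbp5 alone held 37.3% of the pathway's counts. Without it the sums were 1306 ± 188 CPM in the vehicle group and 1258 ± 154 CPM in the E2 group (SD, n = 3 each), a difference smaller than the spread between libraries. Vehicle replicates 1, 2 and 3 had 2237, 2598 and 1780 CPM. The log2 ratio of the group means was -0.37 with library totals, and its size depended on the scaling. It was -0.19 with TMM scaling, -0.21 with RLE scaling and -0.23 with the gene Rn45s left out. Rn45s made up the smallest share of counts in vehicle replicate 2 (28.5%) and the largest in E2 replicate 3 (42.9%). With library totals, the log2 ratio was -0.06 without vehicle replicates 1 and 2 and -0.05 without Igfbp5. The sum covers genes of opposite roles and was not tested.

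To show the DNA at which these genes begin, the promoters of Igfbp5, Igf1r and Gsk3a, the genes the results below turn on, are printed as the 250 bases before the start site (RefSeq, GRCm38.p6), 5′ to 3′ on the gene's strand. The windows are chr1:72874866-72875115 on the minus strand for Igfbp5, chr7:67952007-67952256 on the plus strand for Igf1r and chr7:25237852-25238101 on the minus strand for Gsk3a. Capitals mark the half-site of the estrogen response element, GGTCA or, on the other strand, TGACC.
Igfbp5: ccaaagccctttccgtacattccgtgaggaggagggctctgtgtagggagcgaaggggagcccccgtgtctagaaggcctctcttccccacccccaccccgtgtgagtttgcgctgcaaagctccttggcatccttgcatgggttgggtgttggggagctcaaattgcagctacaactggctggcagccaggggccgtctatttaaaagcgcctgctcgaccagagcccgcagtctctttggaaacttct
Igf1r: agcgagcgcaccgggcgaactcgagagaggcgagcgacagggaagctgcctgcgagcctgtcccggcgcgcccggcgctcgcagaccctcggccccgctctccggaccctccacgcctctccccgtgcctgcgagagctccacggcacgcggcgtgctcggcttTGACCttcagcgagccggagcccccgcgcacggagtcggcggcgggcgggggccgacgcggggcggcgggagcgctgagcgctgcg
Gsk3a: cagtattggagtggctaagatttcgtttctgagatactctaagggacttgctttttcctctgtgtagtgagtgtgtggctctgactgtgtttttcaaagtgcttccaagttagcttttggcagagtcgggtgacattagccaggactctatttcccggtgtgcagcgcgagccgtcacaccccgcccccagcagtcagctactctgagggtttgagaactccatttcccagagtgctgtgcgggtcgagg
Such a half-site was present in 1 of these 3 windows, that of Igf1r, 86 bases before the RefSeq start. The RefSeq start lies 570 bases before the GENCODE start of Igf1r and 19 bases inside the GENCODE gene for Igfbp5, whereas both starts are the same for Gsk3a. RefSeq windows were found for 33 of the 37 genes, and 11 of their 43 windows (25.6%) held a half-site, where 35.2% of all 32851 windows of that length did. The palindrome of GGTCA and TGACC with 3 bases between them was in 0 of the 43 windows and in 0.0639% of all windows. These matches describe letters in the windows and not sites of binding.

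Among the ligand and binding proteins, Igfbp5 and Igfbp3, secreted proteins that bind IGF1 and modulate its access to the receptor, were tested, and neither passed the threshold. Igfbp5 lies on chromosome 1 of mm10 from 72857932 to 72874884. It had 298, 485 and 50 counts in vehicle replicates 1, 2 and 3 and 47, 121 and 76 counts in E2 replicates 1, 2 and 3. These counts correspond to 1032, 1075 and 589 CPM with vehicle and to 373, 609 and 378 CPM with E2. Vehicle replicates 1 and 2 were the highest, and the groups overlapped only because vehicle replicate 3 lay just below E2 replicate 2. The level was 899 ± 269 CPM in the vehicle group and 454 ± 135 CPM in the E2 group (SD, n = 3 each), and the log2 fold change was -0.88 (standard error, SE, 0.45, edgeR adjusted p = 0.224). The unadjusted p was 0.0652, and in 6 of 15 alternatives, among them no filter, library totals, DESeq2 and limma-voom, it was 0.05 or less. Leaving out vehicle replicate 3 gave an adjusted p of 0.0113 (adjusted p between 0.0113 and 0.875 over all alternatives), and leaving out vehicle replicates 1 and 2 together gave a log2 fold change of -0.29.

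Igfbp3 had 111, 139.7 and 70.7 CPM with vehicle and 55.6, 106 and 129 CPM with E2. Its groups overlapped, and the log2 fold change was -0.02 (SE 0.45, edgeR adjusted p = 0.985). The growth factor Igf1 had 37 counts in all and 23.0 ± 14.9 CPM in the vehicle group against 23.7 ± 18.9 CPM in the E2 group (SD, n = 3 each).

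Both receptor genes were too low to be tested with the filter. Insr, the insulin receptor, had 14, 24 and 2 counts with vehicle and 1, 8 and 7 counts with E2. Its CPM was 48.5, 53.2 and 23.6 with vehicle and 7.94, 40.3 and 34.8 with E2. Only E2 replicate 1 lay below all vehicle libraries, and the groups overlapped. Without a filter its log2 fold change was -0.60 (SE 0.62).

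Igf1r, the receptor for IGF1, which also forms hybrids with the insulin receptor, lies on chromosome 7 from 67952827 to 68233668. It had 15, 18 and 9 counts with vehicle and 6, 3 and 1 counts with E2. Its CPM was 51.9, 39.9 and 106 with vehicle and 47.6, 15.1 and 4.97 with E2. E2 replicates 2 and 3 lay below all vehicle libraries, whereas E2 replicate 1 lay among them, and the high value of vehicle replicate 3 rests on 9 counts, with an exact 95% Poisson interval from 48.5 to 201 CPM. Without a filter the fitted log2 fold change was -1.48 (SE 0.67, edgeR adjusted p = 0.384). The unadjusted p of 0.0274 rose above 0.05 on leaving out vehicle replicate 1 (0.0540), E2 replicate 2 (0.111) or E2 replicate 3 (0.169) in edgeR's quasi-likelihood test. Without vehicle replicates 1 and 2 the log2 fold change was -2.11.

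The counts of Insr and Igf1r together gave 100.4, 93.1 and 129.7 CPM with vehicle and 55.6, 55.4 and 39.8 CPM with E2. Each E2 library lay below each vehicle library, and the means were 108 ± 19.4 CPM in the vehicle group and 50.3 ± 9.06 CPM in the E2 group (SD, n = 3 each). The Poisson intervals of single libraries overlapped, for example from 64.7 to 232 CPM in vehicle replicate 3 and from 22.3 to 115 CPM in E2 replicate 1. The intervals cover counting error only, and this sum was described and not tested. Sums were taken for each of the 8 roles, and the receptors were the 1 role whose groups did not overlap, while the groups of the other 7 did. Among single genes with a count, 6.11% lay wholly below and 4.39% wholly above the vehicle group with E2. Of these genes 51.3% had fewer than 10 counts, so the shares do not carry over to sums. The smallest p that an exact permutation test of 3 libraries against 3 allows is 0.1, and 1 of 8 sums does not set the receptors apart from the other roles. The ligand and binding proteins had 1029 ± 313 CPM with vehicle and 574 ± 165 CPM with E2, and the inhibitors 91.3 ± 28.2 and 67.1 ± 20.0 CPM (SD, n = 3 each). For the substrates and adaptors the sums were 266 ± 39.1 and 325 ± 42.4 CPM, for the mTOR branch 253 ± 69.9 and 218 ± 56.5 CPM and for the AKT targets 326 ± 95.4 and 339.9 ± 103 CPM, in the same order.

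**Figure D3:**
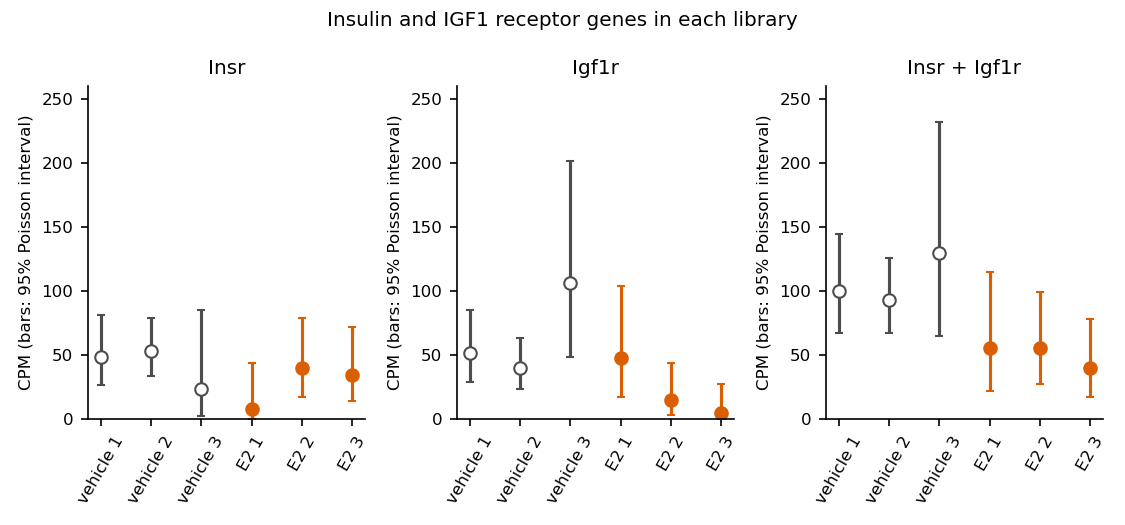
CPM of Insr, of Igf1r and of their sum in each of the 3 vehicle (grey, open) and 3 E2 libraries (orange, filled), with exact 95% Poisson intervals, which cover counting error only. The single genes overlap between the groups, whereas the sum lies between 93.1 and 129.7 CPM with vehicle and between 39.8 and 55.6 CPM with E2.

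Of the 6 substrates and adaptors, 3 had a log2 fold change above and 3 below 0 without a filter. Irs1, a main substrate of the receptors, had 13, 17 and 13 counts with vehicle and 11, 14 and 9 counts with E2. Its CPM was 45.0, 37.7 and 153 with vehicle and 87.3, 70.5 and 44.8 with E2. Vehicle replicate 3 was the highest and vehicle replicate 2 the lowest of all 6 libraries, so the groups overlapped. Irs1 had a log2 fold change of 0.19 (SE 0.55, edgeR adjusted p = 0.850), and its sign turned without vehicle replicate 1 (-0.18) or 2 (-0.40). Irs2, the other major substrate, had 1, 3 and 0 counts with vehicle and 1, 0 and 0 counts with E2, so that no difference was detectable at this depth.

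Ptpn11 encodes SHP2, a phosphatase that binds receptor substrates and promotes MAP kinase signalling. It had 121, 184 and 58.9 CPM with vehicle and 135, 186 and 264 CPM with E2. All E2 libraries lay above vehicle replicates 1 and 3, and vehicle replicate 2 lay among them. Its log2 fold change with E2 was 0.78 (SE 0.48, edgeR adjusted p = 0.309). With vehicle replicates 1 and 2 left out together, which leaves a lone vehicle library that is assumed to vary like the E2 libraries, it was 1.86 (edgeR unadjusted p = 0.0119, adjusted p = 0.329).

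Sos1, the exchange factor that activates RAS, had 13, 12 and 1 counts with vehicle and 1, 2 and 2 counts with E2. Its CPM was 45.0, 26.6 and 11.8 with vehicle and 7.94, 10.1 and 9.95 with E2. In CPM from library totals the groups did not overlap, but the narrow separation from vehicle replicate 3 rests on its single count. Without a filter Sos1 had a log2 fold change of -1.64 (SE 0.81, edgeR adjusted p = 0.464). The unadjusted p of 0.0438 rose above 0.05 when any library but vehicle replicate 3 was left out (0.0642 to 0.263 in edgeR's quasi-likelihood test), and without vehicle replicates 1 and 2 the log2 fold change was -0.02. The adaptors Grb2 and Shc1 had 0.64 (SE 0.64) and -0.58 (SE 0.87), respectively, as log2 fold changes without a filter.

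None of the 7 genes of PI3 kinase and AKT passed the filter, and each had between 3 and 49 counts in all. Akt1, the kinase isoform that prevails in endothelial cells, had 5, 16 and 1 counts with vehicle and 0, 2 and 4 counts with E2. Akt2, the isoform best known for glucose uptake, had 6, 10 and 1 counts with vehicle and 4, 9 and 4 counts with E2. In CPM, Akt1 was 21.5 ± 12.4 with vehicle and 9.99 ± 9.95 with E2 (SD, n = 3), whereas Akt2 was 18.2 ± 5.63 with vehicle and 32.3 ± 12.7 with E2 (SD, n = 3). The means of these isoforms thus lay in opposite directions, but the groups overlapped for both, and the log2 fold changes without a filter (-1.08, SE 0.82, for Akt1 and 0.67, SE 0.69, for Akt2) had unadjusted p-values above 0.05. For Pik3ca, Pik3cb, Pik3r1, Pik3r2 and Pdpk1, the catalytic and regulatory subunits of PI3 kinase and the kinase that phosphorylates AKT, the groups also overlapped. The 7 genes together had 129.7 ± 36.6 CPM with vehicle and 135 ± 37.6 CPM with E2 (SD, n = 3).

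In the mTOR branch, Tsc2, which with Tsc1 restrains the activator of mTOR, was the single gene of 7 tested. Its CPM was 93.5, 82.0 and 224 with vehicle and 135, 161 and 49.7 with E2. The highest value was in vehicle replicate 3 and the lowest in E2 replicate 3, and the groups overlapped. For Tsc2 the log2 fold change was -0.01 (SE 0.55, edgeR adjusted p = 0.995), and it was 0.60 without vehicle replicate 3 and -0.90 (SE 0.57) without vehicle replicates 1 and 2. Exons of Tsc2 share 693 bases with Pkd1 on the opposite strand, which had 29 counts in all.

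Rictor is the defining subunit of mTOR complex 2, which phosphorylates AKT. It had 13, 27 and 6 counts with vehicle and 4, 6 and 5 counts with E2. Its CPM was 45.0, 59.9 and 70.7 with vehicle and 31.8, 30.2 and 24.9 with E2. Each E2 library lay below each vehicle library (58.5 ± 12.9 against 29.0 ± 3.62 CPM, SD, n = 3). Without a filter Rictor had a log2 fold change of -0.93 (SE 0.62), and its unadjusted p was 0.136 in edgeR's quasi-likelihood test. The groups overlapped for Mtor itself, for Rptor, the defining subunit of mTOR complex 1, for Tsc1, for Rheb, the small GTPase that activates this complex, and for Rps6kb1, the S6 kinase that it phosphorylates.

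Gsk3a was the only pathway gene with an unadjusted p of 0.05 or less in the test with the filter. It encodes GSK3 alpha, a kinase that inhibits glycogen synthase and that AKT switches off, and lies on the minus strand of chromosome 7 from 25228258 to 25237851. It had 14, 36 and 5 counts with vehicle and 11, 20 and 28 counts with E2. Its CPM was 48.5, 79.8 and 58.9 with vehicle and 87.3, 101 and 139 with E2. Each E2 library lay above each vehicle library, with a narrow gap between vehicle replicate 2 and E2 replicate 1. The level was 62.4 ± 16 CPM with vehicle and 109 ± 27.0 CPM with E2 (SD, n = 3), and an exact permutation test gave p = 0.1 (two-sided), the smallest that 3 libraries against 3 allow. The log2 fold change was 0.95 (SE 0.44, edgeR adjusted p = 0.184), and the unadjusted p was 0.0449. In edgeR's test the unadjusted p was 0.218 with vehicle replicate 1 left out, 0.0973 with vehicle replicate 2 left out, 0.182 with E2 replicate 3 left out and 0.178 with vehicle replicates 1 and 2 left out together. It was 0.125 with no filter and 0.121 with library totals in edgeR's test, and 0.0879 in that of DESeq2. Without vehicle replicate 3, the adjusted p was 0.0338 (adjusted p between 0.0338 and 0.712 over all alternatives), and the log2 fold change lay between 0.69 and 1.25 in each of the 14 alternatives.

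Exons of Gsk3a share 820 of their 2900 bases (28.3%) with 9130221H12Rik, an antisense RNA on the plus strand of chromosome 7 from 25228687 to 25230263. This RNA had 96.9, 173 and 189 CPM with vehicle and 453, 680 and 458 CPM with E2. Each E2 library lay above each vehicle library. Its log2 fold change was 1.94 (SE 0.46, edgeR adjusted p = 0.0267), and the adjusted p was between 0.0676 and 0.213 when any library but vehicle replicate 3 was left out. It was 0.281 without vehicle replicates 1 and 2 in the same edgeR test. Neither labels nor methods give the strand setting of featureCounts, and if strand was ignored, reads of Gsk3a and of the antisense RNA cannot be told apart in the shared bases. Of the 8 tested pathway genes, 4 share 50 or more exon bases with a gene on the opposite strand, and 47.5% of all tested genes with a GENCODE match do so. The other 3 are Irs1, whose exons share 2822 bases with Gm9747, Inppl1 and Tsc2.

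**Figure D4:**
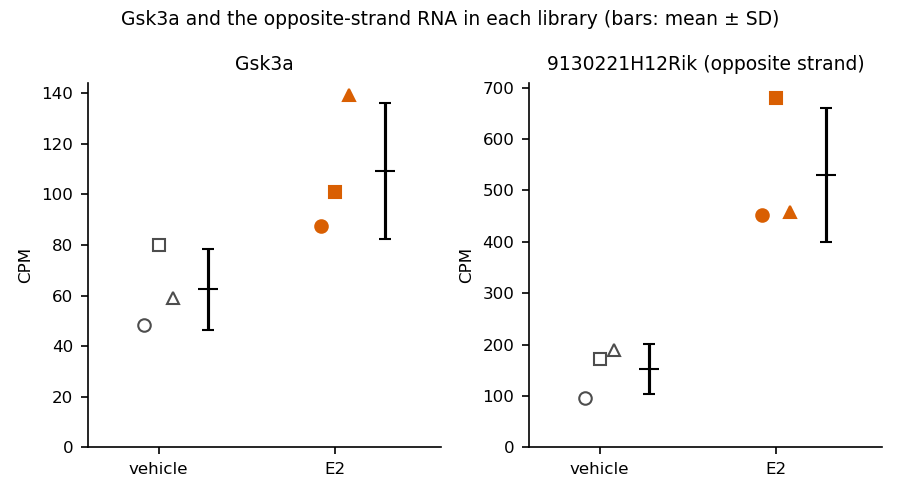
CPM of Gsk3a (left) and of the antisense RNA 9130221H12Rik (right) in the 3 vehicle (grey, open) and 3 E2 libraries (orange, filled). Circles, squares and triangles are replicates 1, 2 and 3, and the bar beside each group is the mean with its SD. In both panels the groups do not overlap.

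The closely related kinase Gsk3b had 33.9 ± 21.8 CPM with vehicle and 24.3 ± 18.8 CPM with E2 (SD, n = 3), and its groups overlapped. Foxo4 had 152, 191 and 106 CPM with vehicle and 95.3, 85.6 and 164 CPM with E2. Only E2 replicate 3 lay among the vehicle libraries. Foxo4 had a log2 fold change of -0.23 (SE 0.46, edgeR adjusted p = 0.788). Foxo1 and Foxo3, FOXO factors that AKT excludes from the nucleus, overlapped between the groups, at 24.1 ± 0.430 and 23.9 ± 10.6 CPM with vehicle and 18.6 ± 10.2 and 21.9 ± 20.5 CPM with E2 (SD, n = 3).

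Tbc1d1 and Tbc1d4 restrain the traffic of glucose transporters to the cell surface until they are phosphorylated. Tbc1d1, whose counts are given because of its value without a filter, had 2, 7 and 1 counts with vehicle and 4, 12 and 3 counts with E2. Its CPM was 6.92, 15.5 and 11.8 with vehicle and 31.8, 60.4 and 14.9 with E2. E2 replicates 1 and 2 lay above all vehicle libraries, and E2 replicate 3 just below vehicle replicate 2. Fitted without a filter, Tbc1d1 had a log2 fold change of 1.55 (SE 0.74, edgeR adjusted p = 0.415). The unadjusted p of 0.0347 became 0.154, 0.0518 and 0.357 on leaving out vehicle replicate 1, vehicle replicate 2 and E2 replicate 2, respectively, and 0.190 on leaving out both of these vehicle replicates, in edgeR's quasi-likelihood test. Tbc1d4 had a log2 fold change of 0.54 (SE 1.37) without a filter.

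Nos3, which encodes eNOS, had 4, 13 and 0 counts with vehicle and 0, 1 and 4 counts with E2. Its CPM was 13.8, 28.8 and 0 with vehicle and 0, 5.04 and 19.9 with E2. Both groups held a library at 0, and the groups overlapped. Without a filter Nos3 had a log2 fold change of -0.94 (SE 0.89), so a change in either direction was not detectable at this depth. Exons of Nos3 share bases with Atg9b and Gm15587 on the opposite strand.

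The MAP kinase Mapk3 (ERK1), an end point of the RAS branch, had 5 counts in all, too few for a comparison. Among the inhibitors, Inppl1, the phosphatase SHIP2, which removes the lipid product of PI3 kinase, had 79.6, 66.5 and 58.9 CPM with vehicle and 71.5, 40.3 and 54.7 CPM with E2. E2 replicates 2 and 3 lay below all vehicle libraries and E2 replicate 1 lay among them. Inppl1 had a log2 fold change of -0.22 (SE 0.46, edgeR adjusted p = 0.797). Ptpn1, the phosphatase PTP1B, which dephosphorylates the insulin receptor, had 22.2 ± 19.4 CPM with vehicle and 8.31 ± 10.3 CPM with E2 (SD, n = 3), with a log2 fold change of -1.50 (SE 0.83) without a filter. Its groups overlapped, and each held a library at 0. Trib3, a pseudokinase that binds AKT, had 3 counts in all.

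A further list of 76 genes of the wider pathway, also chosen with earlier results of these data known, was examined beside the 37. Of these, 71 had a count and 11 were tested. An unadjusted p of 0.05 or less was found for 1 higher gene, Rps6, where 10.5% of all genes tested were higher, and for 1 lower gene, Igf2r, where 15.1% were lower, and the other 9 passed in neither direction. The median log2 fold change of the 11 was -0.10, where that of all genes tested was 0.01. Rps6, the ribosomal protein that the kinase of Rps6kb1 phosphorylates, had 65.8, 95.3 and 94.3 CPM with vehicle and 183, 282 and 289 CPM with E2. Each E2 library lay above each vehicle library. Its log2 fold change was 1.73 (SE 0.45, edgeR adjusted p = 0.0376), and the adjusted p was between 0.0734 and 0.257 when any library but vehicle replicate 3 was left out. In edgeR's test it was 0.413 without vehicle replicates 1 and 2, 0.101 with no filter and 0.05002 with library totals. Ribosomal protein genes have near-identical processed copies in the genome, and the labels and methods do not say how reads that match several places were counted.

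Igf2r, which takes up and clears IGF2, had 145, 219 and 177 CPM with vehicle and 71.5, 70.5 and 69.6 CPM with E2. Each E2 library lay below each vehicle library, and the E2 libraries were close to each other. The log2 fold change was -1.21 (SE 0.44, edgeR adjusted p = 0.0966). Its unadjusted p of 0.0123 became 0.0528 on leaving out vehicle replicate 2, 0.0501 on leaving out E2 replicate 1 and 0.106 on leaving out E2 replicate 2 in edgeR's quasi-likelihood test. Gys1, the glycogen synthase of muscle, and Rapgef1, an exchange factor for small GTPases, were among the genes of this list with the most counts, with log2 fold changes of -0.10 and -0.34 and edgeR adjusted p-values of 0.906 and 0.678.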

How the data were processed

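TRAPseq libraries were analysed from 3 vehicle and 3 E2 samples, grouped by the labels. Per the submitters' processing notes, the authors used bcl2fastq (2.17), FastQC (0.11.2), STAR (2.5.3a) with mm10, and featureCounts (Subread 1.6.0). They deposited raw counts per gene symbol. The strand setting of featureCounts is not given in the labels or methods. The labels name a stranded total RNA kit, and the study's methods a ribosome profiling kit.

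Counts were tested with edgeR (4.0.16) in R (4.3.3) by the quasi-likelihood test, after filterByExpr and TMM scaling, with Benjamini-Hochberg adjustment over all genes tested. Each standard error (SE) is the size of the log2 fold change divided by the square root of F. CPM used library totals. Exact permutation tests over libraries were two-sided, and Poisson intervals (95%) cover counting error only, as do the limits set by counts of 0. The script was tested on simulated data. Gene positions, exon lengths and opposite-strand exons came from GENCODE M21 (mm10), and promoters from RefSeq (GRCm38.p6). Alternatives were RLE scaling, library totals, no filter, a minimum of 10 counts in each library, Rn45s left out, DESeq2 (1.42.0), limma-voom (limma 3.58.1), the replicate block, each library left out in turn and vehicle replicates 1 and 2 left out together. Alternatives for the other pathway genes, the antisense RNA and the fits of Igf1r, Sos1 and Tbc1d1 without a filter were added after seeing the data.

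The members and the lists were chosen with earlier results of these data known. By the naming rule, values in each library are given for genes that passed the filter, for Insr, Igf1r, Irs1, Irs2, Akt1, Akt2 and Nos3, and for genes whose groups did not overlap. Of the other pathway genes, those at an unadjusted p of 0.05 or less and the 5 with the most counts are named, except that some are not reported here. Tbc1d1 is given by library because its value had been seen. At an unadjusted p of 0.05 or less, 1 of 1 smooth muscle (Myh11), 1 of 3 endothelial (Kdr) and 2 of 13 muscle fiber markers tested (Myh4 and Tnnt3) were lower. Of the muscle fiber markers, 1 was higher (Acta1). Among all genes tested, 15.1% were lower and 10.5% higher. The endothelial marker Cdh5 had a log2 fold change of 0.13 (SE 0.56). None of the fibroblast and adipocyte markers tested passed the threshold, and no immune marker was tested. Each pair of libraries differed by more than sampling noise, with a chi-square per degree of freedom of at least 3.71.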

Additional observations from a re-analysis of the deposited data

How the results depend on the processing

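Over the alternatives of the named pathway genes, 101 of 144 log2 fold changes kept direction and side of the unadjusted threshold of 0.05, 22 lost it, 7 gained it and 14 changed sign. All 22 losses were in the genes that had passed the threshold. Gsk3a passed it in 6 of 14 alternatives, and Igf1r, Sos1 and Tbc1d1, fitted without a filter, in 7, 3 and 6 of 10. Few counts limit what could be tested: 8 of the 37 pathway genes passed the filter, as did 1682 of the 14057 genes with a count. With library totals in place of TMM, the median log2 fold change of all genes tested was -0.15 in place of 0.01, and changes are to be read relative to it.

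At an adjusted p below 0.05, 50 genes were lower and 42 higher. There were 132 lower and 31 higher with no filter, 0 lower and 11 higher with at least 10 counts in every library (89 lower at the unadjusted threshold), 90 lower and 33 higher with library totals only, 9 lower and 63 higher with limma-voom, and 1 lower and 6 higher with vehicle replicates 1 and 2 left out together. At the unadjusted threshold, with 254 lower and 177 higher genes, there were 957 and 459 with no filter, 89 and 69 with at least 10 counts, and 55 lower genes without both vehicle replicates. On leaving out single libraries, the lower genes at the adjusted threshold ranged from 2 to 526 and the higher genes from 6 to 477, and between 159 and 597 lower and between 98 and 560 higher at the unadjusted threshold. The highest values were without vehicle replicate 3. The causes were not tested.

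At the unadjusted threshold, the share of all genes lower and higher was 15.1% and 10.5%. It was 6.81% and 3.27% with no filter, 15.4% and 11.9% with at least 10 counts, 18.7% and 7.25% with library totals, 13.0% and 8.09% with DESeq2, 12.1% and 15.7% with limma-voom, and 2.88% and 7.08% without both vehicle replicates. Of the 8 pathway genes tested, 0 were lower and 1 higher. There were 3 lower of 37 with no filter, 1 lower of 2 with at least 10 counts and 1 lower of 8 with library totals, with DESeq2 and with limma-voom, and 0 higher with at least 10 counts, with library totals and with DESeq2. With each library left out there were between 0 and 1 lower and between 0 and 1 higher. Igf1r entered the tested genes and was the lower gene without vehicle replicate 2 or E2 replicate 1. The 2 genes at an adjusted p below 0.05 without vehicle replicate 3 were Igfbp5 and Gsk3a. Of the 11 other pathway genes tested, 1 was lower and 1 higher. With no filter 3 of 71 were lower and 3 higher, with library totals 2 of 11 were lower, with at least 10 counts 0 of 4 were higher, and without both vehicle replicates 2 of 11 were higher. With each library left out, between 0 and 2 were lower and between 1 and 2 higher. The log2 ratio of summed CPM, -0.37, stayed below 0 in each alternative (-0.50 to -0.05), and was -0.06 without both vehicle replicates.

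Deviations from the group means had an r of -0.13, 0.03 and -0.20 between libraries of the same replicate number. Such deviations are tied within a group of 3 libraries, so these values cannot show whether the numbers pair the libraries. With the replicate block, 1 gene was lower and 7 were higher at the adjusted threshold, 0 pathway genes were higher, and the log2 fold change of Gsk3a was 0.87 (unadjusted p = 0.0990 from edgeR's quasi-likelihood test). In the same fit the edgeR adjusted p was 0.121 for Rps6 and 0.104 for 9130221H12Rik. With the block and no filter, 1 pathway gene was lower (Igf1r) and 1 higher (Tbc1d1) at the unadjusted threshold.

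Signs changed only for log2 fold changes that had missed the threshold. Igfbp3 had between -0.32 and 0.32 and Irs1 between -0.40 and 0.92 with each library left out, Tsc2 between -0.41 and 0.60, Foxo4 between -0.64 and 0.17 and Inppl1 between -0.38 and 0.20. Without both vehicle replicates, Igfbp3 had 0.61, Irs1 -1.12, Foxo4 0.27, Gys1 0.11 and Rapgef1 0.35, while Tsc2 moved to -0.90, Inppl1 to -0.01 and Gsk3a to 1.02 with no change of sign. Tsc2 had 0.084 with limma-voom and 0.027 with the replicate block. With each library left out, Gys1 had between -0.41 and 0.20.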
